A study of Mus musculus with 24 samples.

Results

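The baseline cortex of SV129 mice is described here by 3 of the 24 arrays of the series, those of the SV129 mice injected with phosphate-buffered saline (PBS), and is set against the 9 PBS arrays of the strains FVB, C57 and C3H. The members were chosen by strain and agent alone, not by any measured value. All mice were males aged 18 days. PBS, or in other mice CBE (conduritol B-epoxide, which blocks lysosomal breakdown of glucosylceramide and was given to model neuronopathic Gaucher disease), was injected into the peritoneum from day 8 to day 18, CBE at 25 mg per kg per day. Each of the 8 combinations of 4 strains and 2 agents held 3 mice. The 4 groups compared in most of what follows are therefore SV129 PBS, FVB PBS, C57 PBS (C57BL/6JOlaHsd per the labels) and C3H PBS, none of which carries a transgene or a genetic model of the disease. The labels give no substrain for SV129, FVB or C3H. They do not say whether mice of 1 group were littermates or were processed on different days, so litter, handling and strain cannot be told apart. The tissue was the part of a 1 mm coronal slice that held the cortex.

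Inbred mouse strains are each nearly uniform in their genome and differ from one another at many loci, through single-base changes, gene copy number and inserted retroviral elements. Strains related to SV129 are widely used as the source of embryonic stem cells for gene targeting, so their alleles often remain beside a targeted gene after crossing to another strain. Array probes were designed on a reference sequence close to C57BL/6, and a base change under a probe lowers its signal as a lower mRNA level would. A probe's match to the RNA of a strain and the level of that RNA cannot be told apart on these arrays, and this holds for each gene named below.

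The 12 PBS arrays had medians between 4.14 and 4.21 on the log2 scale, and the 3 SV129 medians, 4.17, 4.14 and 4.16, were at the lower end. Correlations between arrays of a group ran from 0.992 to 0.995 within SV129 and from 0.995 to 0.997 within the other strains. The median SD over probe sets was 0.112 among SV129 arrays, 0.107 for FVB, 0.0928 for C57 and 0.0932 for C3H. Markers of cortical excitatory neurons were present in SV129: Camk2a, Nrgn and Slc17a7 had means of 11.93, 11.62 and 11.12, and Neurod6 of 8.46. Emx1 at 3.97 lay near the array median. None of the 14 probe sets of the list of excitatory cortical neurons passed the limma test, and 2 had an unadjusted p under 0.05.

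The main comparison asked which transcripts set untreated SV129 cortex apart from that of the other strains as a whole. SV129 cortex had high signal for the extracellular matrix protein Abi3bp, the aldehyde oxidase Aox4, the signal recognition particle gene Srp54c and the cohesin acetyltransferase Esco1. It had low signal for the ribosomal protein gene Rps13, the interferon-inducible ubiquitin ligase Herc6, the complement inhibitor Cd59a and the cathepsin Ctsk. A difference is the SV129 mean less the equal-weight mean of the other 3 strain means on the log2 scale, where 1 is a doubling, with its standard error from limma. A probe set is called when its adjusted p, over 23521 probe sets with 1 gene symbol, is under 0.05. Of these, 720 were called, or 3.06%, and they belonged to 702 genes. They comprised 475 higher in SV129 (2.02%) and 245 lower (1.04%). The median size of a called difference was 0.42, and 57 reached a 2-fold change, 27 higher and 30 lower.

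A second condition was that SV129 lay outside the range of all 9 other PBS arrays, with every SV129 array above the highest or below the lowest of them. With or without a call, 763 probe sets (3.24%) met it. It held for 408 of the called probe sets (1.73% of those tested), 291 higher (1.24%) and 117 lower (0.497%). The other 312 called probe sets overlapped the range. The gap between the SV129 arrays and the nearest other array was mostly small, with a median of 0.099, and 29 probe sets had a gap of at least 0.5. Called in the same way against its own 3 counterparts, FVB had 707 probe sets (3.01%), C57 had 2003 (8.52%) and C3H had 499 (2.12%). SV129 against 1 strain at a time gave 689 calls for FVB (2.93%), 1480 for C57 (6.29%) and 438 for C3H (1.86%). These contrasts share arrays with the main one. The SV129 count was 359 without SV129 array 2, and it was 167 when the 9 other arrays were treated as 1 group, whose spread then includes differences between the other strains. Centring each array on its own median gave 76.8% of calls higher, against 66.0% here.

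**Figure D1:**
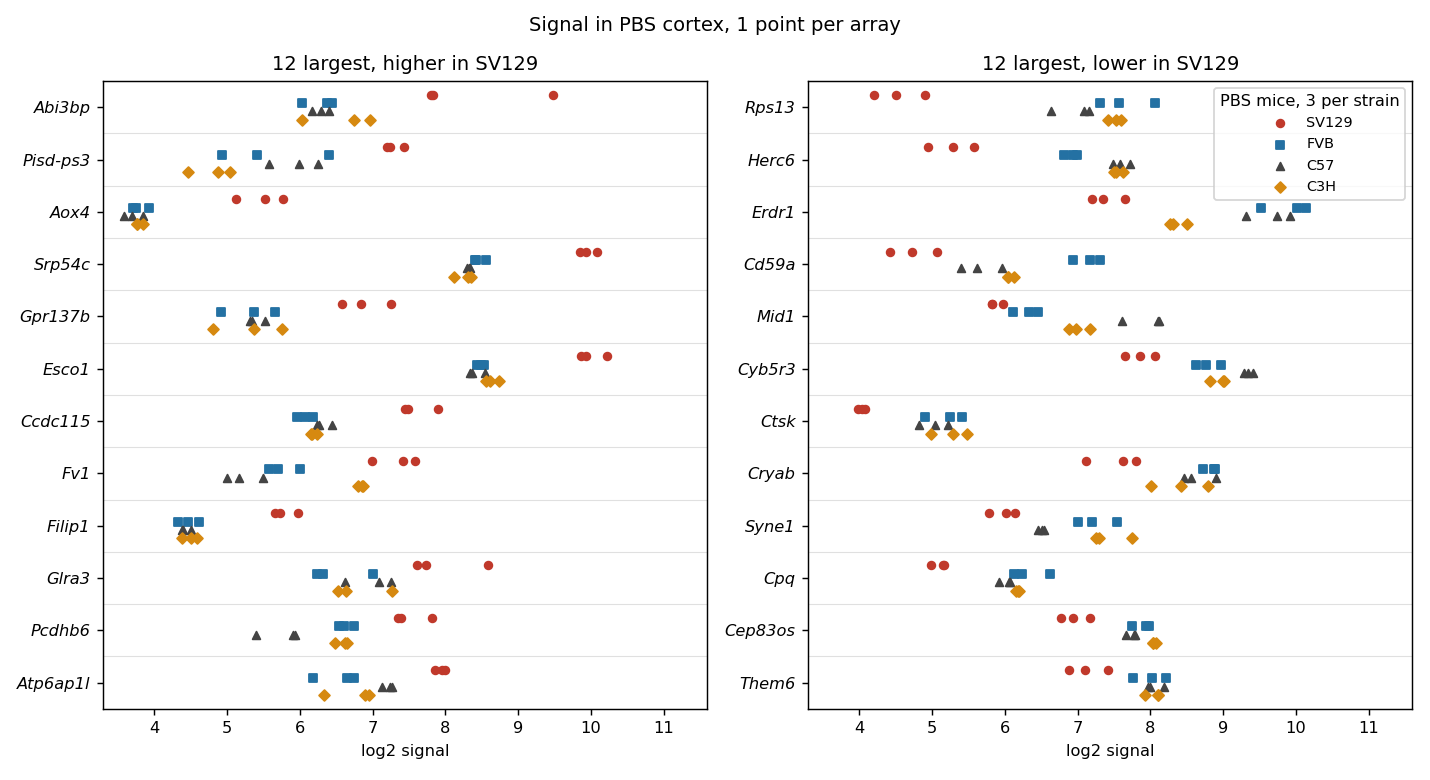
Log2 signal (x axis) of the 12 largest differences in each direction (y axis, gene symbols) among called probe sets outside the range of the 9 other arrays; each point is 1 PBS array, with 3 per strain. Srp54c is above 9.8 in all 3 SV129 mice and at most 8.56 in the others, whereas for Fv1 the C3H arrays lie just under those of SV129.

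Among the 12 largest higher genes, Srp54c had the smallest adjusted p. It encodes a copy of the GTPase subunit that delivers nascent secretory proteins to the endoplasmic reticulum. The SV129 arrays read 9.93, 10.09 and 9.85, and the 9 others ran from 8.12 to 8.56 with a median of 8.33. The difference was 1.61 ± 0.07 (adjusted p = 3.5e-08), a 3.05-fold higher signal. Close relatives of this gene exist in the mouse genome, so the signal may be shared between copies. Ppp2r3c, its neighbour in gene order, was higher by 0.79 ± 0.08 and was singled out after its values were seen.

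Esco1 acetylates cohesin, the ring that holds sister chromatids and chromatin loops. Its SV129 values were 9.87, 10.22 and 9.93, against 8.34 to 8.74 and a median of 8.54 in the others, a difference of 1.49 ± 0.08 (adjusted p = 1.9e-07). Aox4, a molybdenum enzyme that oxidizes aldehydes and retinal, read 5.52, 5.77 and 5.12 in SV129 against 3.59 to 3.92 elsewhere, where it lay under the array median. Its difference was 1.71 ± 0.11 (adjusted p = 9.7e-07). For both genes each of the 3 other strains lay at a similar level, and the gaps to the nearest other array were 1.13 and 1.19.

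Abi3bp had the largest difference of the 12 and the widest spread. The SV129 mice read 9.48, 7.82 and 7.81, and the 9 others ran from 6.03 to 6.97 with a median of 6.37, so that 1 SV129 mouse stood well above its group. The difference was 1.99 ± 0.29 (adjusted p = 0.0024), and without that mouse it was 1.43. Pisd-ps3, a pseudogene related to phosphatidylserine decarboxylase, had tight SV129 values of 7.43, 7.24 and 7.19 against a broad range of 4.47 to 6.40, and differed by 1.85 ± 0.24 (adjusted p = 8.2e-04). C3H was the lowest strain for it.

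Gpr137b, a lysosomal membrane protein that recruits Rag GTPases, read 7.25, 6.84 and 6.57 in SV129 against 4.81 to 5.76, a difference of 1.55 ± 0.19 (adjusted p = 6.1e-04). Ccdc115, which helps assemble the vacuolar proton pump, read 7.45, 7.90 and 7.48 against 5.96 to 6.44, a difference of 1.42 ± 0.09 (adjusted p = 1.0e-06). Atp6ap1l, named for its likeness to an accessory subunit of the same pump, read 7.95, 8.00 and 7.85 against 6.19 to 7.27, a difference of 1.11 ± 0.13 (adjusted p = 4.4e-04). All 3 genes were named from those called and outside the range, so the lack of overlap with another strain follows from that choice. Mir5103, next to Ccdc115 in gene order, went the other way: its probe set read 4.15, 3.87 and 4.17 in SV129 and 5.58 to 6.19 in the others, a difference of -1.73 ± 0.12. It was singled out after its values were seen.

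Filip1, which binds filamin in migrating neurons, was higher by 1.32 ± 0.08 (adjusted p = 7.6e-07), at 5.65 to 5.98 in SV129 and 4.33 to 4.62 elsewhere. Glra3, a subunit of the inhibitory glycine receptor, read 8.58, 7.74 and 7.60 in SV129 against 6.23 to 7.26, a difference of 1.20 ± 0.23 (adjusted p = 0.012). Its call was lost under an ordinary linear model, where the adjusted p was 0.093. Pcdhb6 is described with its cluster below.

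Fv1, a gene derived from a retroviral capsid that restricts mouse leukaemia viruses, lay just outside the range. The SV129 arrays read 6.99, 7.42 and 7.59, C3H read 6.85, 6.87 and 6.80, FVB lay between 5.58 and 6.00, and C57 between 4.99 and 5.50. The difference from the 3 strains together was 1.39 ± 0.13 (adjusted p = 3.8e-05), but that from C3H alone was 0.49 (adjusted p = 0.18). The call was lost with the 9 other arrays as 1 group (adjusted p = 0.13).

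Rps13 had the largest difference among the 12 lower genes. It encodes a protein of the small ribosomal subunit, and many processed copies of such genes exist, so its signal may be shared with or split among them. SV129 read 4.21, 4.51 and 4.90, close to the array median, whereas the 9 others ran from 6.64 to 8.06 with a median of 7.42. The difference was -2.84 ± 0.16 (adjusted p = 4.1e-07), and no fold is given because SV129 lay so low.

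Herc6, the main ligase that attaches the ubiquitin-like protein Isg15 in mouse, read 4.95, 5.58 and 5.29 in SV129. FVB read 6.81, 6.94 and 6.99, and C57 and C3H lay between 7.49 and 7.72. The difference was -2.08 ± 0.10 (adjusted p = 1.0e-07), with a gap of 1.23 to the nearest array. The difference from each strain singly was -1.64 for FVB, -2.33 for C57 and -2.28 for C3H. The genes on either side of Herc6 in the order of the RefSeq annotation were also called lower and outside the range, and were singled out after their values were seen. Ppm1k, a mitochondrial phosphatase of branched-chain amino acid breakdown, read 9.35, 9.30 and 9.23 against 9.74 to 10.09, a difference of -0.65 ± 0.06 (adjusted p = 2.2e-05). Pyurf, a small mitochondrial protein gene, differed by -0.35 ± 0.08 (adjusted p = 0.029), a call that was lost without SV129 array 2 or 3, without C57 array 2 or 3, and in 4 of 10 other alternatives. The next named gene on the Pyurf side, Lancl2, had a difference of -0.12 (adjusted p = 0.34).

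Cd59a, a membrane-anchored inhibitor of the terminal complement complex, read 4.72, 5.06 and 4.42 in SV129. The other strains were themselves spread out, with FVB between 6.94 and 7.31, C3H between 6.04 and 6.13 and C57 between 5.40 and 5.96. The difference was -1.55 ± 0.13 (adjusted p = 1.8e-05). SV129 lay below each strain, which the choice of Cd59a from lower genes outside the range required. With the 9 arrays as 1 group the adjusted p was 0.068.

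Ctsk, the collagen-degrading cathepsin K, had SV129 values of 3.98, 4.04 and 4.07, under the array median, against 4.82 to 5.48, a difference of -1.13 ± 0.12 (adjusted p = 1.5e-04). Cpq, a secreted peptidase, was lower by 1.08 ± 0.09 (adjusted p = 1.7e-05), with SV129 between 4.98 and 5.16 and the others between 5.92 and 6.63. Cyb5r3, the reductase that passes electrons from NADH to cytochrome b5, read 8.06, 7.86 and 7.65 against 8.62 to 9.40, a difference of -1.17 ± 0.09 (adjusted p = 8.2e-06). In these 3 genes SV129 stood below each of the other strains, which their choice from lower genes outside the range required.

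Cryab, the small heat shock protein alphaB-crystallin, was lower on both of its probe sets. The brighter one read 7.63, 7.11 and 7.79 in SV129 against 8.01 to 8.90, a difference of -1.11 ± 0.16 (adjusted p = 0.0020). The dimmer one differed by -0.70 ± 0.13 (adjusted p = 0.013), also outside the range. Them6 differed by -0.90 ± 0.11 (adjusted p = 7.4e-04) and Cep83os, an RNA named for the strand opposite Cep83, by -0.93 ± 0.08 (adjusted p = 1.8e-05).

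The remaining 3 lower genes had uneven levels among the other strains or along the gene. Erdr1 read 7.66, 7.35 and 7.20 in SV129, 8.27 to 8.50 in C3H and 9.31 to 10.14 in FVB and C57, a difference of -1.90 ± 0.15 (adjusted p = 7.0e-06). Its other probe set read 8.91, 8.46 and 8.49 in SV129 and overlapped C3H, at 8.93, 8.63 and 8.91. Mid1, a microtubule-associated ubiquitin ligase, read 5.82, 5.82 and 5.98 in SV129, 6.11 to 6.46 in FVB, 6.88 to 7.17 in C3H and 7.60 to 8.11 in C57. Its difference was -1.21 ± 0.11 (adjusted p = 3.4e-05), that from FVB alone was -0.43 (adjusted p = 0.12), and the call was lost with the 9 arrays as 1 group (adjusted p = 0.20). The other Mid1 probe set read 4.89, 4.91 and 5.15 in SV129 and overlapped FVB, at 4.90, 5.65 and 5.20. Both genes lie at or near the pseudoautosomal boundary of the sex chromosomes, where copies vary between strains. Syne1, which encodes the giant nuclear envelope protein nesprin-1, had 59 probe sets along its length. Of these, 3 were called higher and 2 lower, from 0.77 ± 0.06 to -1.08 ± 0.12, so no single direction describes the gene.

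The largest difference over all called probe sets belonged to the predicted gene Gm3893, which the naming rule leaves out and which was singled out after its values were seen. Its 3 probe sets differed by -4.34, -4.32 and -3.15. On the first, SV129 read 3.91, 3.77 and 3.67, C3H 3.93, 4.14 and 3.94, FVB 9.48, 9.63 and 9.50 and C57 10.79, 10.88 and 10.79. SV129 and C3H were thus alike at the bottom of the scale, with a difference between them of -0.22 (adjusted p = 0.31). Fam205a2, next to it, showed the same order on its 5 probe sets, some of which held identical values.

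Called genes were also placed in gene order. Of 695 called genes that could be placed on the RefSeq annotation of assembly GRCm38.p6, 76, or 10.9%, adjoined another called gene, whereas 6.14% of all 21994 placed genes adjoined one. Among called genes outside the range the share was 10.3% of 397, against 3.52%. Of the 39 adjacent pairs, 27 had the same direction. Because 66.0% of all called probe sets were higher, unrelated pairs of called genes would often share a direction too. The longest runs held 3 genes, and there were 2 of them: Ppm1k, Herc6 and Pyurf, all lower, and Pcdhb2, Pcdhb3 and Pcdhb4, all higher. These shares were not tested.

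The beta protocadherins are cell surface adhesion proteins encoded by a row of single-exon genes, each neuron using a few of them to label its surface. Of the 22 probe sets in this cluster, 1 per gene, 7 were called higher and 0 lower, against 2.02% and 1.04% of all probe sets. A difference above 0 was found for 20 of them, against 11886 of all 23521 probe sets. The median difference was 0.26, against 0.0013 over all probe sets tested. Pcdhb6 read 7.39, 7.82 and 7.35 in SV129 against 5.39 to 6.74, a difference of 1.20 ± 0.12 (adjusted p = 8.8e-05), and C57 was the lowest strain. Pcdhb7 read 6.09, 5.98 and 6.03 against 4.94 to 5.58, a difference of 0.74 ± 0.10 (adjusted p = 0.0015). Pcdhb2 and Pcdhb3 were higher by 1.02 ± 0.19 and 0.81 ± 0.15, but FVB shared the SV129 level, with differences from FVB of 0.26 (adjusted p = 0.64) and 0.05 (adjusted p = 0.93). The calls of Pcdhb2 and Pcdhb3 were lost without SV129 array 2 or 3, and that of Pcdhb4 without SV129 array 2, which ends the run of 3. The cluster was picked after its values were seen, the genes are similar in sequence, and probes can be shared among them.

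**Figure D2:**
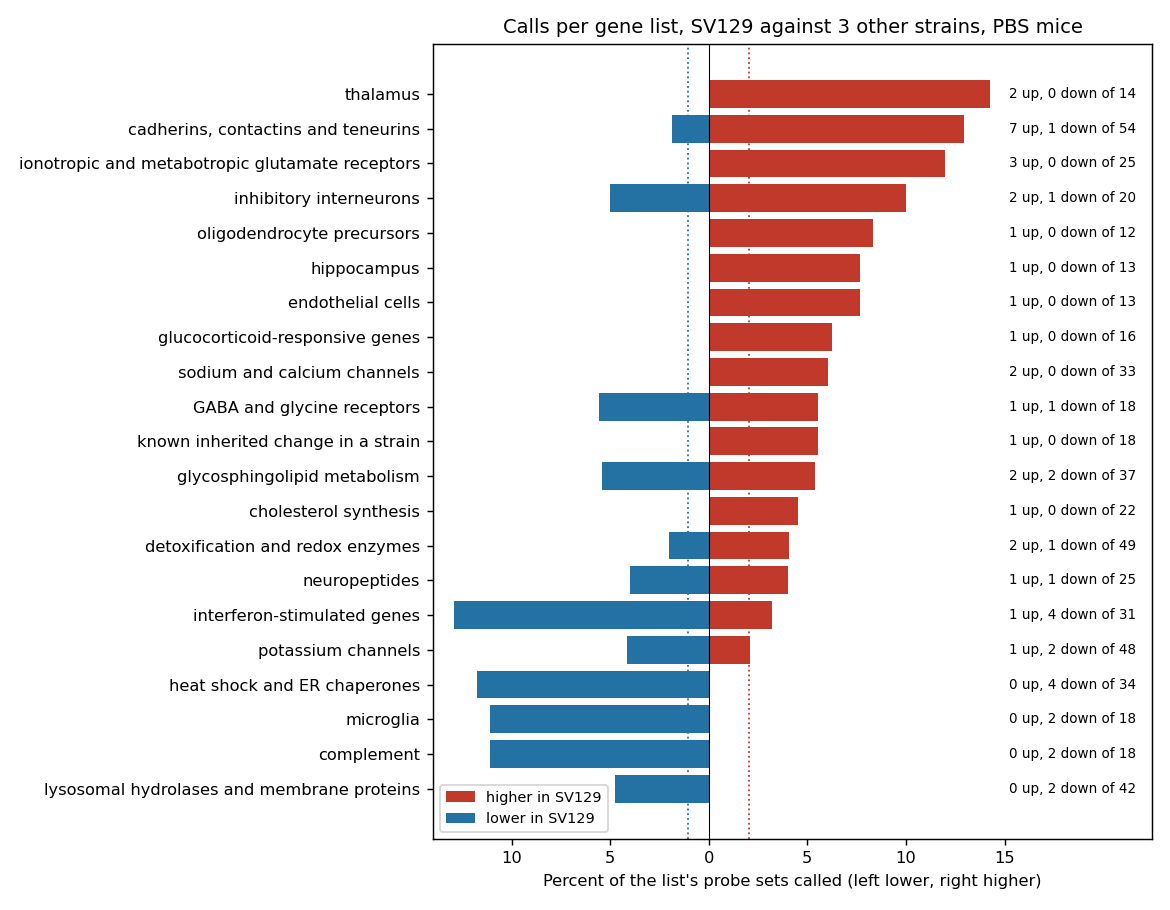
Percent of the probe sets of each gene list that were called (x axis), higher in SV129 to the right and lower to the left, for the 21 lists with at least 1 call (y axis); dotted lines mark the shares over all 23521 probe sets, 2.02% and 1.04%. The adhesion and thalamus lists extend to the right, and the interferon, chaperone, microglia and complement lists to the left, on counts of 1 to 8.

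Of 40 lists of pathways, cell types and regions, 21 held a called probe set. The 3.06% given beside the lists' shares includes dim probe sets, with a median level of 4.43 over all tested. A fit of only the 12873 probe sets above the median level called 779. The 3.06% is therefore a low yardstick for lists of bright genes. Many of the calls named from these lists were close to the threshold, and the arrays without which a call was lost are given with it. Of all 83 named probe sets called, 46 were lost with the 9 other arrays as 1 group and 29 under an ordinary linear model. The list of cadherins, contactins and teneurins, proteins that join neurons and shape their connections, had 7 of its 54 probe sets higher and 1 lower, or 14.8% against 3.06% of all probe sets. The median difference was 0.11, and 36 were above 0. Tenm3, which guides topographic wiring, read 9.35, 9.42 and 9.06 against 8.38 to 8.97, a difference of 0.58 ± 0.10 (adjusted p = 0.0059). The delta protocadherins Pcdh18 and Pcdh19 were higher by 0.67 ± 0.10 (adjusted p = 0.0031) and 0.61 ± 0.12 (adjusted p = 0.014). Cdh10 was lower by 0.25 ± 0.06 (adjusted p = 0.027), with SV129 at 10.41 to 10.45 and the others at 10.58 to 10.74. The Cdh10 call was lost without any 1 SV129 array or C3H array 2, and the Pcdh19 call without SV129 array 3. The count of 8 was 2 without SV129 array 3, and 5 without SV129 array 2, C57 array 1 or C3H array 2.

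The thalamus lies below the cortex in a coronal slice. Of the 14 probe sets of its marker list 2 were called, both higher, or 14.3% against 3.06% of all probe sets. Ntng1, an axon guidance protein of thalamic neurons, read 8.65, 8.30 and 8.04 in SV129 against 7.25 to 7.86, a difference of 0.74 ± 0.10 (adjusted p = 0.0018). Calb2, the calcium-binding protein calretinin, which also marks a class of interneurons, was higher by 0.52 ± 0.10 (adjusted p = 0.015). Of the 14, 10 lay above 0. Slc17a6, the vesicular glutamate transporter of the thalamus, differed by 0.45 ± 0.14 (adjusted p = 0.12), Prkcd by 0.31 ± 0.10 (adjusted p = 0.12), and Tcf7l2 by 0.02. The mean of the list was 5.63, 5.67 and 5.62 in the SV129 mice and 5.42 to 5.53 in the 9 others, which did not overlap. The means of 2 other lists did not overlap either. The adhesion list lay at 7.76 to 7.79 in SV129 against 7.61 to 7.68. The complement list lay at 4.42 to 4.54 against 4.55 to 4.75. The part of the thalamus signal in the adhesion, glycine and glutamate receptor results was not tested. The Calb2 call was lost without SV129 array 1 or 2.

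Receptors and channels had calls in both directions, on 2 or 3 probe sets a list. The share called was 12% for glutamate receptors and 11.1% for GABA and glycine receptors, against 3.06% of all probe sets. It was 6.25% for potassium channels and 6.06% for sodium and calcium channels. The median levels of these lists, in that order, were 8.16, 9.43, 8.12 and 8.50, against 4.43 over all probe sets. The channel shares were near that of the fit of brighter probe sets, 779 of 12873. Of 25 probe sets of glutamate receptors 3 were higher: the NMDA receptor subunit Grin3a by 0.57 ± 0.11 (adjusted p = 0.017), the presynaptic receptor Grm7 by 0.35 ± 0.07 (adjusted p = 0.018) and the kainate receptor Grik1 by 0.28 ± 0.07 (adjusted p = 0.046). The Grik1 call was lost in 11 of the 12 fits that left out 1 array and in 5 of 10 other alternatives. Grin3a was lost without SV129 array 1 and Grm7 without SV129 array 2 or 3. The count for glutamate receptors was 1 without SV129 array 1 or 3. The other Grm7 probe set lay at 7.18 to 7.41 in SV129, within the 6.91 to 7.63 of the 9 other arrays. Among 18 probe sets of GABA and glycine receptors, Glra3 was higher and Gabra3, a GABA-A receptor subunit, was lower by 0.31 ± 0.06 (adjusted p = 0.016), a call lost without SV129 array 2 or 3. Of 48 potassium channel probe sets, Kcnn2, a calcium-activated channel, was higher by 0.36 ± 0.08 (adjusted p = 0.031), and Kcns1, a silent voltage-gated subunit, and Kcnab2, a beta subunit, were lower by 0.51 ± 0.09 (adjusted p = 0.0099) and 0.35 ± 0.08 (adjusted p = 0.025). All 3 of these were lost without SV129 array 2, Kcnab2 also without SV129 array 3, and Kcnn2 in 6 of the 12 fits that left out 1 array. Of 33 sodium and calcium channel probe sets, Ryr3, a calcium release channel, was higher by 0.64 ± 0.10 (adjusted p = 0.0026) and the leak channel Nalcn by 0.32 ± 0.07 (adjusted p = 0.021). The latter was lost without SV129 array 2 or 3.

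Interneuron and peptide genes included Reln, the secreted protein of Cajal-Retzius cells and interneurons that guides cortical layering. It read 8.89, 8.95 and 9.16 in SV129, 7.87 to 8.02 in C57 and 8.15 to 8.62 in FVB and C3H, a difference of 0.79 ± 0.10 (adjusted p = 5.2e-04). SV129 was above each strain. Npy, the peptide of a class of interneurons, was lower by 0.46 ± 0.09 (adjusted p = 0.014), but FVB shared its level, with a difference of -0.05 from FVB (adjusted p = 0.87). Grp, a peptide of excitatory neurons, was higher by 0.65 ± 0.13 (adjusted p = 0.019) and C57 shared its level, with a difference of 0.12 (adjusted p = 0.76). The Npy call was lost without SV129 array 2 and the Grp call without SV129 array 2 or 3. With Calb2, Reln and Npy, the interneuron list had 2 higher and 1 lower of 20, or 15% against 3.06% of all probe sets. The neuropeptide list had 1 of each, of 25, or 8%, and held 1 call without SV129 array 2 or 3.

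Interferon-stimulated genes are switched on by Stat proteins that bind elements in their promoters. The promoters of Ifit1 and Bst2, members of the list that were called lower in SV129, and of Herc6, which had the larger difference, are shown as the regulatory sequence of these genes from RefSeq (GRCm38.p6, a C57BL/6J sequence, so not that of SV129), each as the 250 bases before the start, 5′ to 3′ on the gene's strand.
Ifit1, chr19:34640639-34640888, plus strand: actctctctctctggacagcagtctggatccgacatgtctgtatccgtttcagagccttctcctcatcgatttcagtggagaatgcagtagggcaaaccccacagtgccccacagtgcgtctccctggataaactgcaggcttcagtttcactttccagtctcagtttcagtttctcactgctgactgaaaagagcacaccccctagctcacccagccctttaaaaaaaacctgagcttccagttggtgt
Bst2, chr8:71537473-71537722, minus strand: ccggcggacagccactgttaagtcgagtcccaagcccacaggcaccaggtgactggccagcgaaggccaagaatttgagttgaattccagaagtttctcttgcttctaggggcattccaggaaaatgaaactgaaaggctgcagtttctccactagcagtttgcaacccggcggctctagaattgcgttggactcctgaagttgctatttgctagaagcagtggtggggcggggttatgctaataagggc
Herc6, chr6:57580742-57580991, plus strand: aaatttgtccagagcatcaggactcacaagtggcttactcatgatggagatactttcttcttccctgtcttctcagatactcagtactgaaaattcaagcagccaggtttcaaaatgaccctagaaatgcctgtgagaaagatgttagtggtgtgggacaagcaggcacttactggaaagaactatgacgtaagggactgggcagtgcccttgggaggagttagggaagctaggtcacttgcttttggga

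Of the 31 probe sets of the interferon list, which does not include Herc6, 4 were lower in SV129 and 1 was higher, or 16.1% against 3.06%, with a median difference of -0.12. Ifit1, which binds viral RNA, read 4.05, 4.31 and 4.31 in SV129 against 4.39 to 5.97, a difference of -0.77 ± 0.14 (adjusted p = 0.0097), and was the one member both called and outside the range. It was near the SV129 level in FVB, at 4.39 to 4.60. Bst2, which tethers budding viruses, read 4.05, 3.78 and 3.97 in SV129, means of 3.81 in FVB and 3.91 in C3H, and 5.41, 5.56 and 6.05 in C57. Its difference of -0.53 ± 0.11 (adjusted p = 0.022) thus came with a difference of 0.12 from FVB and 0.02 from C3H, against -1.74 from C57. Lgals3bp, a secreted glycoprotein, read 5.08 to 5.39 in SV129, 4.88 to 5.10 in FVB, 5.52 to 5.89 in C3H and 7.08 to 7.77 in C57, a difference of -0.82 ± 0.13 (adjusted p = 0.0045). Its other probe set lay at 3.88 to 4.14 in SV129, within the 3.82 to 4.49 of the 9 other arrays. Usp18, which removes Isg15 and was singled out after its values were seen, differed by -0.34 ± 0.08 (adjusted p = 0.041) and by 0.02 from FVB. Its call was lost in 10 of the 12 fits that left out 1 array and in 7 of 9 other alternatives. Stat2, the signal transducer, was higher by 0.38 ± 0.08 (adjusted p = 0.021), with a mean like that of C3H. The Stat2 call was lost without SV129 array 1 or 3, and the Bst2 call without SV129 array 2 or 3. The 5 calls fell to 0 with the 9 arrays as 1 group or under an ordinary linear model, to 1 with all 24 arrays in 1 fit, to 3 without SV129 array 1 or 2 and to 2 without SV129 array 3.

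**Figure D3:**
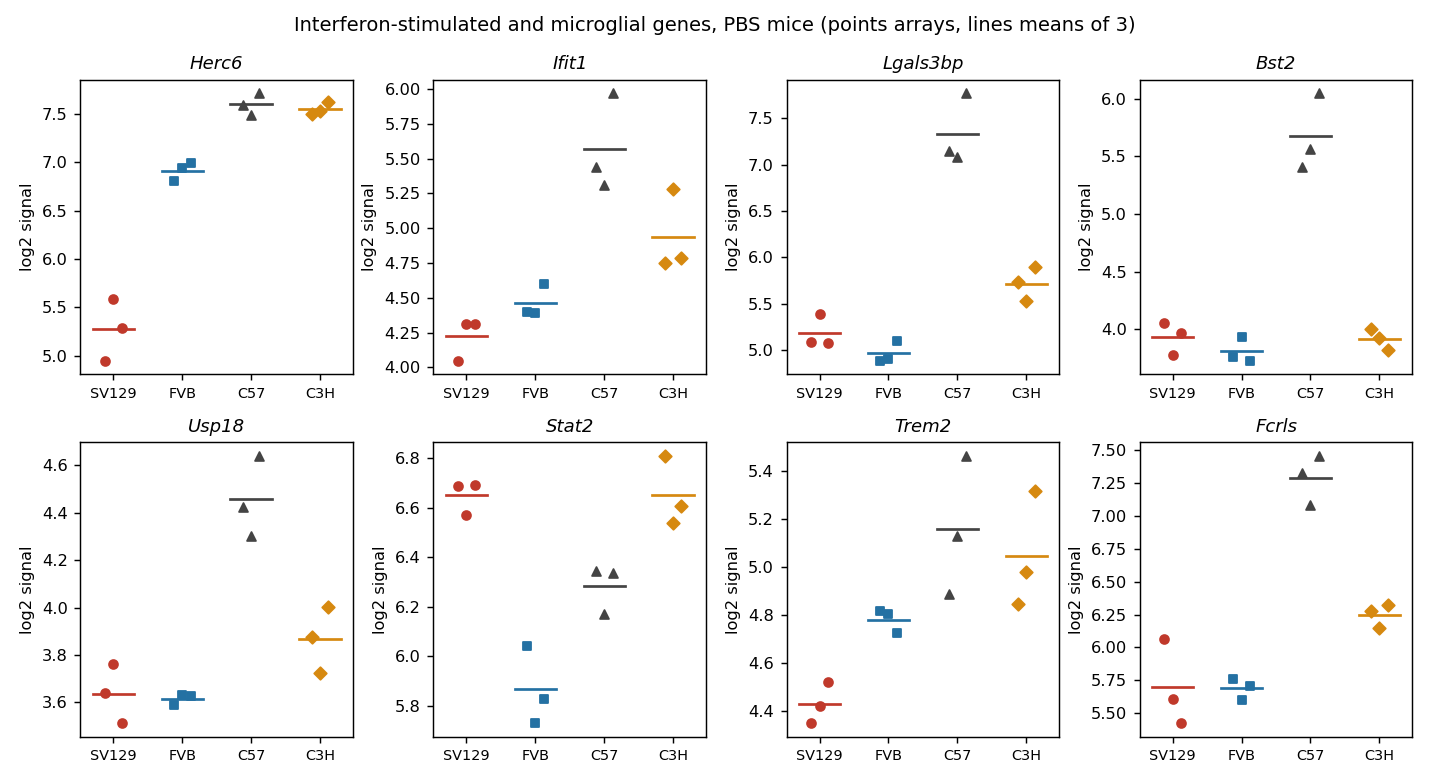
Log2 signal (y axis) of Herc6, 5 interferon-stimulated genes and the microglial genes Trem2 and Fcrls in PBS mice of each strain (x axis); points are arrays and lines are means of 3. Herc6 and Trem2 are lowest in SV129 alone, whereas for Bst2, Lgals3bp, Usp18 and Fcrls SV129 lies beside FVB and C57 is the highest.

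Microglia, the resident phagocytes of the brain, had 2 lower and 0 higher of 18 probe sets, with 4 above 0 and a median of -0.16. The share called was 11.1%, against 3.06% of all probe sets. Trem2, a lipid-sensing receptor of these cells, read 4.35, 4.42 and 4.52 against 4.73 to 5.46, a difference of -0.57 ± 0.11 (adjusted p = 0.016), and lay outside the range. Fcrls read 6.07, 5.61 and 5.42 in SV129 and 5.60 to 5.76 in FVB, against 7.08 to 7.46 in C57, and differed by -0.71 ± 0.12 (adjusted p = 0.0046). The mean of the list overlapped between strains, at 6.15 to 6.49 in SV129 and 6.26 to 6.79 in the others. Csf1r, P2ry12 and Tmem119, further markers of these cells, differed by -0.12, -0.09 and -0.01. In bulk tissue, fewer cells of a type and less RNA per cell cannot be told apart. The Trem2 call was lost without SV129 array 1 or 2. Of 18 complement probe sets 2 were lower, Cd59a and the C1 inhibitor Serping1, the latter by 0.35 ± 0.08 (adjusted p = 0.031) and level with C3H. The complement share was 11.1%, against the same 3.06%. The complement count was 1 without any 1 of the SV129 arrays, FVB array 2 or FVB array 3.

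Genes of myelin, which is still forming at this age, had 0 calls in the limma fit and 1 of 13 probe sets at an unadjusted p under 0.05. All 13 differences were below 0 with a median of -0.24, but the list's mean overlapped, at 7.64 to 8.19 in SV129 and 7.17 to 8.79 in the others. Of 12 probe sets of oligodendrocyte precursors, Pdgfra, their growth factor receptor, was higher by 0.38 ± 0.08 (adjusted p = 0.029). Of 13 each for endothelial cells and hippocampus, the transporter Slco1a4 was higher by 0.43 ± 0.09 (adjusted p = 0.025), at the level of C57 with a difference of -0.02 from it (adjusted p = 0.96), and C1ql2, a synaptic protein of dentate granule cells, by 0.37 ± 0.09 (adjusted p = 0.036). The Slco1a4 call was lost without any 1 SV129 array, and the Pdgfra call without SV129 array 1 or 3, C57 array 1 or C3H array 1 or 2. The C1ql2 call was lost in 9 of the 12 fits that left out 1 array. The precursor, endothelial and hippocampus lists held 1 call each, or 8.33%, 7.69% and 7.69%, against 3.06% of all probe sets.

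Glycosphingolipids are the lipids that CBE causes to build up, so their baseline enzymes are of interest here. Of 37 probe sets 2 were higher and 2 lower, or 10.8% against 3.06% of all probe sets. Gba2, the non-lysosomal enzyme that splits glucosylceramide, read 8.29, 8.13 and 8.46 in SV129 against 8.69 to 8.88, a difference of -0.50 ± 0.07 (adjusted p = 0.0016). The difference was -0.48 from FVB, -0.46 from C57 and -0.55 from C3H. The sialyltransferase St8sia5 was lower by 0.34 ± 0.08 (adjusted p = 0.028). The ceramide synthase Cers5 was higher by 0.27 ± 0.06 (adjusted p = 0.034) and the sphingomyelin synthase Sgms2 by 0.32 ± 0.07 (adjusted p = 0.037). The Gba2 call held without each array in turn. The St8sia5 call was lost in 4 of those 12 fits (SV129 arrays 1 and 2, C57 array 2 and C3H array 1), and those of Cers5 and Sgms2 in 8 each. The list's count was 1 without SV129 array 1, SV129 array 2 or C3H array 1, and 2 without SV129 array 3 or C3H array 2. Of 42 probe sets of lysosomal hydrolases and membrane proteins 2 were lower, Ctsk and the protective protein Ctsa, by 0.34 ± 0.07 for Ctsa (adjusted p = 0.025), which was lost without SV129 array 2 or 3. Of 22 cholesterol probe sets 1 was called, the sterol carrier Stard4, higher by 0.53 ± 0.08 (adjusted p = 0.0023) and outside the range. The share called was 4.76% for the lysosomal list and 4.55% for cholesterol, near the 3.06% of all probe sets.

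Chaperones had 4 lower and 0 higher of 34, or 11.8% against 3.06% of all probe sets, although 20 lay above 0 and the median was 0.04. Besides both Cryab probe sets these were the small heat shock protein Hspb8, lower by 0.46 ± 0.09 (adjusted p = 0.017) and level with FVB, and the inducible Hspa1b, lower by 0.74 ± 0.12 (adjusted p = 0.0041). For Hspa1b the SV129 arrays read 5.23, 4.94 and 4.76, C3H lay between 4.83 and 5.07 and FVB between 6.39 and 6.82. The count was 2 without SV129 array 2, and the Hspb8 call was lost without SV129 array 2 or 3. Of 49 probe sets of detoxification and redox enzymes 2 were higher and 1 lower, or 6.12% against the same 3.06%. Glo1, which detoxifies methylglyoxal, read 9.82, 9.87 and 9.70 in SV129, 9.56 to 9.81 in C3H and 8.57 to 8.89 in FVB and C57. Its difference was 0.77 ± 0.07 (adjusted p = 6.6e-05). Gsr, which regenerates glutathione, was higher by 0.65 ± 0.08 (adjusted p = 7.5e-04) with C3H at the same side. Their differences from C3H, 0.11 (adjusted p = 0.71) and 0.17 (adjusted p = 0.58), did not pass the test, and both calls were lost with the 9 arrays as 1 group. The epoxide hydrolase Ephx1 was lower by 0.32 ± 0.07 (adjusted p = 0.022), a call lost without SV129 array 1 or 2, with all 24 arrays in 1 fit and with the trend and robust settings of limma. Of 16 glucocorticoid-responsive probe sets Sult1a1, a sulfotransferase, was higher by 0.69 ± 0.15 (adjusted p = 0.025), which was lost without SV129 array 2. It was the 1 call of its list, or 6.25% against 3.06%.

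The remaining 19 lists, which held 326 probe sets, had 0 calls in the limma fit and 35 at an unadjusted p under 0.05. An ordinary linear model called 2 of the 326. The trend and robust settings of limma called 5, and all 24 arrays in 1 fit called 7, across these 19 lists. They were the lists of excitatory neurons, cortical layers, pan-neuronal and synaptic genes, astrocytes, myelin, pericytes, meninges, choroid plexus, erythroid cells, lymphocytes, monocytes and neutrophils, striatum, immediate-early genes, MHC class I, MHC class II, inflammasome and cell death sensors, monoamine and other receptors, the circadian clock and the cell cycle.

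Genes with a known inherited change in 1 or more of these strains were listed to check the labels. Of 18 probe sets only Glo1, duplicated in some inbred strains, was called, or 5.56% against 3.06% of all probe sets. Casp4, an inflammatory caspase that strains related to SV129 are known to lack in function, read 3.55, 3.59 and 3.56 in SV129 against 3.55 to 3.98, a difference of -0.16 ± 0.07 (adjusted p = 0.31), at a level below the array median in every strain. Disc1, which carries a small deletion in strains related to SV129, differed by 0.05 ± 0.06 (adjusted p = 0.77). Mmrn1, part of a deletion in the C57BL/6JOlaHsd substrain, differed by -0.08 ± 0.07 (adjusted p = 0.59), with all strains between 3.44 and 3.76. These levels near background give no check of the labels.

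The same contrast was then taken among the 12 mice given CBE, which share no array with the PBS mice. There 625 probe sets were called (2.66%), 301 higher (1.28%) and 324 lower (1.38%). Of the 720 PBS calls, 650, or 90.3%, had the same direction in the CBE mice, against 55.8% of all probe sets. Called in both were 243 probe sets, 33.75% of the PBS calls and 38.88% of the CBE calls, and all had the same direction. The share was 25.3% of the 475 higher calls and 50.2% of the 245 lower calls. Of the 408 called and outside the range in PBS mice, 27.7% were also outside the range of the 9 other CBE arrays on the same side, against 3.15% of all probe sets. Of the 57 differences of 2-fold or more, 49 were called in the CBE mice too.

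**Figure D4:**
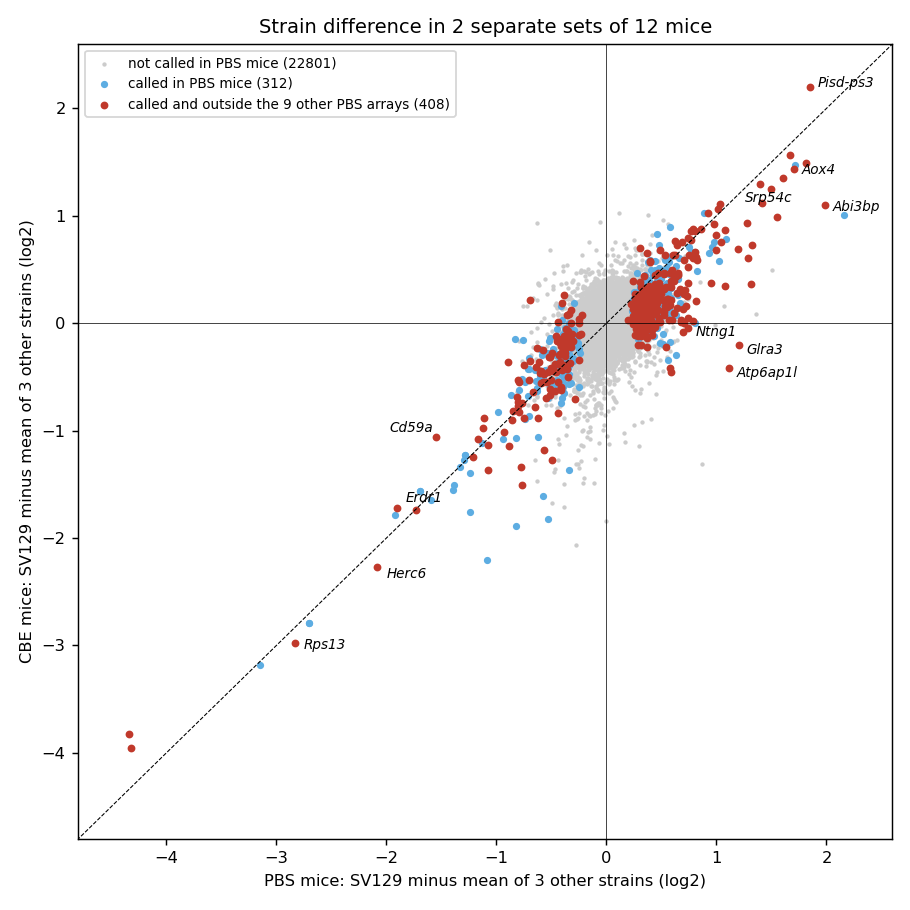
SV129 less the other 3 strains in PBS mice (x axis) and in CBE mice (y axis), both log2 differences; each point is 1 of 23521 probe sets, and the dashed line marks equality. Many large differences lie near the line, with Rps13 at -2.84 and -2.98, but Abi3bp is at 1.99 and 1.10. Glra3 and Atp6ap1l fall below 0 in CBE mice.

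Most of the 24 named genes kept the direction of their difference in the CBE mice, some at a smaller size. Rps13 differed by -2.98 there, Herc6 by -2.27, Erdr1 by -1.72, Cpq by -1.37, Mid1 by -1.25, Cyb5r3 by -1.08, Cd59a by -1.06 and Ctsk by -0.97. On the higher side Pisd-ps3 differed by 2.20, Aox4 by 1.44, Srp54c by 1.35, Esco1 by 1.25 and Ccdc115 by 1.12. Reln, at 0.87 ± 0.08 (adjusted p = 3.4e-05), and Gba2, at -0.42 ± 0.06 (adjusted p = 0.0020), were called again and again lay outside the range. In the interferon list, 14 of 31 were lower in SV129 among CBE mice and 0 higher, against 1.38% lower and 1.28% higher over all probe sets, with a median of -0.56. Of 23 immediate-early probe sets 11 were lower, against the same 1.38%, where 0 were called in PBS mice.

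Some genes that were higher in SV129 PBS mice were not so in the CBE mice. Glra3 differed by -0.21 ± 0.11 there (adjusted p = 0.44), Atp6ap1l by -0.42 ± 0.24 (adjusted p = 0.48), Tenm3 by -0.42 ± 0.15 (adjusted p = 0.19) and Ntng1 by -0.04 ± 0.10 (adjusted p = 0.91). The change of the strain difference between PBS and CBE mice was -1.41 for Glra3, -1.53 for Atp6ap1l and -0.78 for Ntng1. For these genes and for Tenm3 the adjusted p of that change was 0.090, which missed the threshold. The adhesion list had a median of -0.03 in CBE mice, with 1 higher and 4 lower of 54, against 1.28% and 1.38% of all probe sets. The thalamus list had a median of -0.03 with 0 calls. The beta protocadherins had a median of 0.06, against 0.011 over all probe sets. Of their 22 probe sets 14 were above 0, against 12748 of all 23521.

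**Figure D5:**
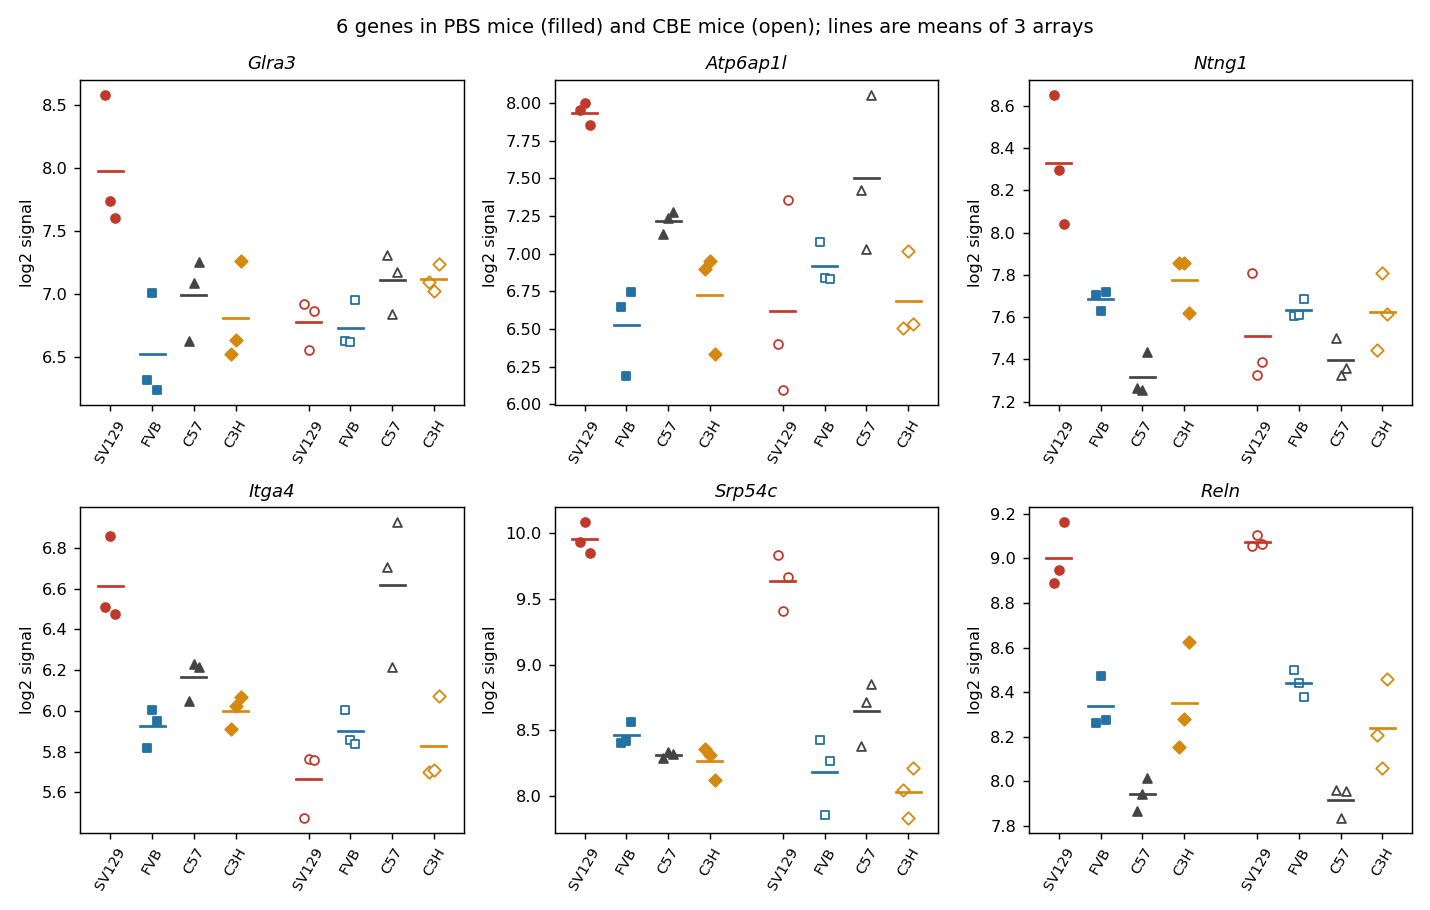
Log2 signal (y axis) of 6 genes in PBS mice (filled points) and CBE mice (open points) of each strain (x axis); lines are means of 3 arrays. Srp54c and Reln stand above the other strains under both agents, whereas Glra3, Atp6ap1l, Ntng1 and Itga4 do so in PBS mice only, and of these the change for Itga4 passed the test.

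In the fit of all 24 arrays the strain difference itself changed between PBS and CBE mice for 3 probe sets (0.0128%), with 2368 at an unadjusted p under 0.05. Itga4, an integrin subunit of leukocytes, read 6.51, 6.86 and 6.47 in SV129 PBS mice against 5.82 to 6.23, a difference of 0.58 ± 0.08, and differed by -0.45 ± 0.13 in CBE mice. Cntn6, a contactin of developing neurons, differed by 0.26 ± 0.09 in PBS mice (adjusted p = 0.15) and by -0.62 ± 0.10 in CBE mice (adjusted p = 0.0054). The clone-named gene 4930429F24Rik differed by 1.32 ± 0.10 and 0.37 ± 0.10. Its other probe set lay under the array median and differed by 0.03 in PBS mice (adjusted p = 0.86). The adjusted p of the change was 0.024 for each of the 3 called probe sets. The count was 0 with an ordinary linear model, quantile normalization, all probe sets tested or the 9 other arrays as 1 group, and without SV129 CBE array 1 or 2, C57 PBS array 2 or C3H PBS array 1 or 2. It was 1 without SV129 PBS array 2 and 26 without SV129 PBS array 1. All 3 were singled out because they passed this test.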

How the data were processed

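Cortical RNA of 24 mice was measured on 24 arrays, labelled with the GeneChip WT PLUS kit per the labels' protocols. The authors deposited 41034 probe sets as log2 values, made with RMA and Partek according to the submitters' processing notes; versions, parameters and genome build are not stated there. Array medians lay between 4.14 and 4.22, and values were used as deposited. The number of arrays limits the precision.

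The platform annotation gives 1 gene symbol to 23521 probe sets (22180 genes), several to 1814 and none to 15699; only the first were tested, with no filter on dim probe sets. limma 3.58.1 in R 4.3.3 fitted 4 group means to the 12 PBS arrays (8 residual and 5.01 prior degrees of freedom), with two-sided moderated tests and Benjamini-Hochberg adjustment at 0.05. The same contrast was fitted to the 12 CBE arrays, and its change between agents to all 24. A median standard error was 0.079. Where nothing says that mice came from separate litters, p-values measure the spread between these samples. An exact permutation test of 3 against 9 was not used, because limma shares the spread between groups and probe sets.

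Named genes were the 12 largest in each direction that were called and outside the range (1 probe set per gene, leaving out predicted genes, clones, small RNAs and receptor families), up to 4 called members per list by smallest p, the called members of the inherited-change list, and Mmrn1, Disc1 and Casp4. The comparison and the 40 lists (781 of 872 genes measured, 6 through another symbol) were chosen with earlier results of these data known. Gene order and promoters came from RefSeq GRCm38.p6, used for names, neighbours and sequence only.

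On simulated data for the SV129 contrast in 23521 probe sets, 76.1%, 97.0% and 100% of log2 changes of 0.5, 1 and 2 were recovered, with 8 false among 190 calls. The simulated noise was independent between arrays and between probe sets, so these rates do not measure false calls in the deposited arrays. Alternatives changed the arrays fitted, the probe sets tested, the normalization, the variance model, the grouping of the 9 arrays and a block on replicate number, and left out each array in turn.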

Additional observations from a re-analysis of the deposited data

Results flagged for a closer look

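These 3 results stood out because the strain difference itself differed between PBS and CBE mice in a test of that difference, the SV129 difference in CBE mice less that in PBS mice, in the fit of all 24 arrays. For Itga4 (probe set 17372307) it was -1.04 (adjusted p = 0.024). For 4930429F24Rik (probe set 17548765) it was -0.95 (adjusted p = 0.024). For Cntn6 (probe set 17461240) it was -0.88 (adjusted p = 0.024). The other 4930429F24Rik probe set, under the array median, was not called in PBS mice (adjusted p = 0.86). All 3 calls were lost with an ordinary linear model, quantile normalization, all probe sets tested or the 9 other arrays as 1 group, and without any 1 of SV129 CBE arrays 1 and 2, C57 PBS array 2 and C3H PBS arrays 1 and 2.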

How the results depend on the processing

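With an ordinary linear model, 363 probe sets were called for SV129 in PBS mice, 263 outside the range, 287 in CBE mice and 0 for the change between agents. With the 9 other arrays as 1 group these counts were 167, 163, 113 and 0. Leaving out 1 array gave 359 (without SV129 PBS array 2) to 741 PBS calls, 277 to 580 outside the range, 281 to 657 CBE calls (302 and 281 without SV129 CBE arrays 1 and 2) and 0 to 26 for the change between agents, which was also 0 with all probe sets tested or with quantile normalization, and 10 with arrays centred on their medians. Median centring gave 76.8% of PBS calls higher, against 66.0%, and 37% of CBE calls, against 48.2%. Other alternatives left the PBS and CBE counts within 1.5 times, but the probe sets called changed more than their number. Of the 720 main PBS calls, 462, 307 and 401 were kept without SV129 PBS arrays 1, 2 and 3. With all probe sets tested 414 were kept, and without 1 array of another strain 512 to 630. Of 83 named probe sets called in PBS mice, 51 were called without each array in turn and 32 under every alternative that tested them; none reversed. The Ntng1 difference in CBE mice ran from -0.19 without SV129 CBE array 1 to 0.048 without array 2, and was 0.018 without array 3, a change of sign. The cause was not tested, apart from the fewer arrays and the wider spread that these settings construct.

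A block on replicate number gave 664 PBS calls, 369 outside the range, 662 CBE calls and 7 for the change between agents. The numbers were not shown to pair mice: of 18 same-number pairs, 5 had a correlation of deviations over 0.1, from -0.18 to 0.17, and 6 of 12 arrays correlated best with their own number.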
